A study of Mus musculus with 2 samples.

Results

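Fibroadipogenic progenitors are the resident mesenchymal cells of skeletal muscle, and the nuclei described here are those progenitors with little or no Postn, the gene for the secreted matrix protein periostin. They were found by UMI counts. A nucleus needed 2000 or more UMIs (unique molecular identifiers, each marking 1 captured RNA molecule), at most 5% of them from mitochondrial genes. It needed 1 or more UMIs of Pdgfra and 4 or more of Pdgfra, Abca8a, Bmper and Ebf2 summed. Nuclei with more than 1 UMI of Ptprc and Pax7 summed, or with 1% or more of UMIs from Ttn, Neb, Trdn and Dmd, were left out. Postn had to be at 0 or 1 UMI. The rule selected 699 of 23616 nuclei, 437 of 16986 in the AHRfl/fl library and 262 of 6630 in the AHRmKO library. The nuclei were chosen by these measured values, so the levels of the rule's own genes are a description.

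RNA of single nuclei was sequenced from the tibialis anterior, a muscle of the lower leg. The mice were males of 16 to 20 weeks and had chronic kidney disease, and the femoral artery had been ligated 5 days before the muscle was taken. AHRfl/fl mice carry a floxed Ahr gene (strain AHRtm3.1Bra/J), and AHRmKO is the knockout label of the same cross. Both labels list the transgene Tg(ACTA1-cre/Esr1*)2Kesr/J, a tamoxifen-dependent Cre under the skeletal actin promoter, which is a promoter of muscle fibres. Whether the AHRfl/fl mice carried Cre or received tamoxifen, and how many animals stand behind a library, is not given in the sources used here. There was 1 library per genotype, so no difference between genotypes has a replicate check, no test was made, and every interval below covers counting error only. "AHRfl/fl" and "AHRmKO" below mean the library with that label.

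Fibroadipogenic progenitors lie between muscle fibres and around vessels, produce much of the muscle's matrix, and signal to satellite cells and immune cells after injury. After damage some turn on matrix genes such as Postn, Tnc and collagens, while others keep a resting profile. They can form adipocytes and fibrogenic cells, and Pdgfra, the receptor for platelet-derived growth factor, is the marker in common use. The aryl hydrocarbon receptor, AHR, is a ligand-activated transcription factor that pairs with ARNT and binds the core letters GCGTG in genes such as Cyp1b1.

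The libraries differed in ways that touch every comparison between them. AHRfl/fl held 151788328 UMIs in all and AHRmKO 113737134, and the low-Postn nuclei summed to 1776277 and 1206514. Median depth was 3726 UMIs in AHRfl/fl and 3187.5 in AHRmKO, and the median mitochondrial share was 0.713% and 2.42%. Genes for ribosomal proteins summed to 15939 CPM, the count scaled to 1e6 UMIs of the same nuclei, in low-Postn nuclei of AHRfl/fl and to 3145 CPM in AHRmKO. In barcodes of 200 to under 500 UMIs, called low-count barcodes below, the same genes summed to 94396 and 11879 CPM. These barcodes held 21.9% and 42.0% of all UMIs and served as a profile of RNA outside nuclei, and how far they hold such RNA was not tested. No barcode was shared between the 2 libraries' low-Postn nuclei, against 30 among all nuclei.

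The label was checked against Scara5, the marker of these cells that the rule did not use. As a description, Pdgfra, which the rule required, stood at 971 CPM in AHRfl/fl and 939 CPM in AHRmKO, against 31.8 and 14.6 CPM in all nuclei outside the progenitor rule. Scara5, a scavenger receptor, stood at 420 and 467 CPM, against 16.5 and 12.2 CPM there. After thinning every nucleus to 2000 UMIs, Scara5 was seen in 43.0% of low-Postn nuclei of AHRfl/fl (95% exact binomial interval 38.3 to 47.8) and 47.7% of those of AHRmKO (41.5 to 53.9), and in 2.27% and 2.14% of the other nuclei. Ebf1, a transcription factor of mesenchymal and adipocyte lineages, had the most UMIs of 20 progenitor identity genes, at 4903 and 5182 CPM.

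The genes furthest above all other nuclei in both libraries were, among genes with enough UMIs, C7, Sned1, Pdgfra, Lsamp, Tnfaip6, Tnxb, C1qtnf7, Scara5, Nova1, Ntrk2, Aldh1a2 and Fgf7. C7, a complement component, stood at 220 CPM against 4.98 in AHRfl/fl and 429 against 8.53 in AHRmKO. Sned1, which encodes a secreted matrix protein, stood at 1643 against 52.9 CPM and 3188 against 89.2 CPM. Aldh1a2, which makes retinoic acid, stood at 522 against 22.4 CPM and 568 against 11.2 CPM. Fgf7, a growth factor for epithelial cells, stood at 182 against 7.60 CPM and 148 against 5.34 CPM. These nuclei were picked by progenitor genes, so this ordering describes the selection.

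Marker lists of 13 other cell types were summed as well, and 10 of them lay below their level in all other nuclei in both libraries. The 3 that lay above it in both were those of adipocytes, of mesothelial or synovial cells and of tendon cells. All other nuclei include the cell types of these lists and leave out progenitors with 2 or more Postn UMIs. The rule itself limited Ptprc of the macrophage list, Pax7 of the satellite cell list, and the fibre genes Ttn, Neb, Trdn and Dmd. Lower macrophage, satellite cell and muscle sums thus follow in part from the selection. Of 15 myofibre markers all 15 had UMIs in both libraries, summing to 1817 CPM in AHRfl/fl and 414 CPM in AHRmKO, against 12836 and 3300 CPM in the low-count barcodes. Markers of immature muscle nuclei summed to 1283 and 153 CPM, with 10 and 9 of 10 seen. Of 11 macrophage or monocyte markers all 11 had UMIs, with sums of 1149 and 390 CPM, against 4292 and 2777 CPM in all other nuclei. Endothelial markers summed to 104 CPM in AHRfl/fl, where 10 of 10 were seen, and to 235 CPM in AHRmKO, where Kdr alone was at 0. Adipocyte markers, 6 and 5 of 7 seen, summed to 1369 and 2759 CPM, of which Ghr, the growth hormone receptor, made up 1212 and 2561 CPM, against sums of 693 and 703 CPM in all other nuclei. Mesothelial or synovial markers summed to 275 and 303 CPM, against 50.6 and 144 CPM there, and tendon cell markers to 147.5 and 78.7 CPM, against 40.5 and 17.8 CPM. Prg4 made up 261 and 293 CPM of the mesothelial or synovial sums. Msln of the same list went the other way, at 14.6 and 9.12 CPM against 32.4 and 134 CPM in all other nuclei. Thbs4 made up 123 and 48.1 CPM of the tendon cell sums. In progenitors with 2 or more Postn UMIs the tendon cell sums were 287 and 89.8 CPM, above those of low-Postn nuclei in both libraries. Mesothelial or synovial sums there were 318 and 201 CPM, above in AHRfl/fl and below in AHRmKO. Adipocyte sums there were 1136.5 and 1303 CPM, below those of low-Postn nuclei but above those of all other nuclei. Cd3e, Cd3g, Themis and Nkg7 of T and NK cells, Retnlg and Mmp8 of neutrophils, Sox10 of Schwann cells, Kera of tendon cells, and Lrrn4 and Upk3b of mesothelial cells were at 0 in both libraries. Their part in the results below was not tested, apart from the values given without the clusters that held such markers. Such a cluster had 3 or more markers of 1 other cell type 2-fold up and a summed level of these markers 2 times or more that of the other low-Postn nuclei.

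Low-Postn nuclei made up 2.57% of nuclei in AHRfl/fl (exact interval 2.34 to 2.82) and 3.95% in AHRmKO (3.50 to 4.45). Among nuclei that met the progenitor rule at any Postn level, 437 of 960 were low-Postn in AHRfl/fl, or 45.5% (42.3 to 48.7), and 262 of 369 in AHRmKO, or 71.0% (66.1 to 75.6). The limit lies inside a continuous distribution. In AHRfl/fl 282 nuclei had 0 Postn UMIs, 155 had 1, 120 had 2 and 77 had 3, and in AHRmKO the numbers were 216, 46, 32 and 16. The nuclei with 2 or more are called high-Postn below, 523 in AHRfl/fl and 107 in AHRmKO. Their median depth was 4278 and 5374 UMIs, above that of the low-Postn nuclei in each library. With Postn held at 0 the shares were 1.66% and 3.26%, and without clusters that held markers of another cell type they were 2.33% and 2.53%.

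By list median, the largest difference between the libraries in low-Postn nuclei lay in early response genes, transcription factors and regulators that cells switch on within minutes of a stimulus. Of 25 such genes 21 had 30 or more UMIs in either library, and 21 of these 21 were 2-fold or more higher in AHRmKO. Among all 8644 genes with that many UMIs, 508 were 2-fold or more higher, or 5.88%, and 1194 were 2-fold or more lower, or 13.8%. The median log2 ratio of AHRmKO over AHRfl/fl, with 0.5 CPM added to each level, was 2.56 over the 21 genes and -0.027 over all 8644. It was -2.52 over 80 ribosomal protein genes, nearly as far the other way, and their median was not taken in other settings. A log2 ratio of 1 is 2-fold. The minimum of 30 UMIs applied to the higher library, so a gene with few UMIs in AHRfl/fl entered only where AHRmKO was high. Atf3, with 12 and 61 UMIs, and Egr2, with 15 and 61, were among those that entered in this way. Fosb, Nr4a1, Nr4a3, Egr3, Btg2 and Ier3 also had fewer than 30 UMIs in AHRfl/fl. The count of 21 of 21 thus follows in part from the minimum. At a minimum of 1 UMI, 22 of the 25 genes were 2-fold or more higher and 0 lower, with a median of 2.43.

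Promoters of 3 of these genes, Fos, Fosb and Nr4a1, are shown as the 250 bases before the start of the transcript, from RefSeq on GRCm38.p6 and read in the direction of the gene, because these genes led the difference. Capitals mark TGACG or its reverse complement CGTCA, letters that the cAMP response element contains, a motif chosen after these sequences had been read.
Fos, chr12:85473640-85473889, plus strand: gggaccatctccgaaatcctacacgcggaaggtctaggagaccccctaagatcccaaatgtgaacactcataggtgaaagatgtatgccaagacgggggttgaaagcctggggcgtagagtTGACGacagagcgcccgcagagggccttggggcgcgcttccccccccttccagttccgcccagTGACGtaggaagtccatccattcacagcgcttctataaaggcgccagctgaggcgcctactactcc
Fosb, chr7:19310046-19310295, minus strand: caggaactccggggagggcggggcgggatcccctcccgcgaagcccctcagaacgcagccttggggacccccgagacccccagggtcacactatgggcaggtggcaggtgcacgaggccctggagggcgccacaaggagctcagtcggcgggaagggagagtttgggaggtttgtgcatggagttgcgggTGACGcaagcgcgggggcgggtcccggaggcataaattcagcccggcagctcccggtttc
Nr4a1, chr15:101266596-101266845, plus strand: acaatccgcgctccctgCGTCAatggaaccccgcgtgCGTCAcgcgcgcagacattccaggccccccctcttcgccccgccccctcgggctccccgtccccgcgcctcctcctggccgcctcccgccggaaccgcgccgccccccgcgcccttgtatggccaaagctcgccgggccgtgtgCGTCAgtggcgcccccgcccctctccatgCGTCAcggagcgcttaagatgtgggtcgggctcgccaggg
On either strand the letters TGACG occurred in 13 of the 20 early response genes with a promoter in the table, or 65%. Over all 27025 genes with a promoter in the table the share was 19.8%, in windows of the same length. Fos, Fosb and Nr4a1 are among the 13, so their part of that count follows from the choice of motif. The whole element TGACGTCA, which contains TGACG, occurred in 3 of the 20, or 15%, against 1.77% of all genes. The CArG box, the serum response element, occurred in 2 of the 20, or 10%, against 1.62%. These matches describe the letters in the window and do not show that a factor binds there.

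Fosb and Fos, genes of the AP-1 factors, had the widest gaps among early response genes with UMIs in both libraries. Fosb, which encodes a partner of JUN proteins, was counted 28 times in AHRfl/fl and 1193 times in AHRmKO. That is 15.8 and 989 CPM, and the log2 ratio was 5.93 (95% counting interval 5.43 to 6.57). Fos, with 45 and 881 UMIs, stood at 25.3 and 730 CPM, a log2 ratio of 4.82 (4.42 to 5.32). Jun stood at 48.4 and 264 CPM, Junb at 67.0 and 234 CPM, and Jund at 20.8 and 143 CPM. Fos, Fosb and the 3 Jun genes were thus all higher in AHRmKO. Atf3, a stress-induced member of the same superfamily, stood at 6.76 and 50.6 CPM.

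Zinc-finger and nuclear receptor genes of the early response went the same way. Egr1 stood at 51.2 CPM in AHRfl/fl and 643 CPM in AHRmKO, a log2 ratio of 3.64 (3.34 to 3.98), and Egr2 and Egr3 at 8.44 and 50.6, and at 9.57 and 58.8 CPM. Nr4a1, an orphan nuclear receptor, stood at 16.3 and 280 CPM, a log2 ratio of 4.06 (3.55 to 4.70). Nr4a3, a close relative, had 0 UMIs in AHRfl/fl and 39 in AHRmKO, at least 19.1-fold higher against a floor of 3 UMIs summed over the AHRfl/fl nuclei. Klf4 stood at 29.3 and 322 CPM, a log2 ratio of 3.44 (3.04 to 3.91). Among genes that dampen the response, Zfp36, which destabilises cytokine mRNA, stood at 20.3 and 139 CPM, Btg2 at 11.3 and 76.3 CPM and Dusp1, a phosphatase of MAP kinases, at 37.2 and 123 CPM. Ier3 had the smallest ratio of the 21 at 1.11 (0.32 to 1.99), on 22 and 33 UMIs.

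**Figure D1:**
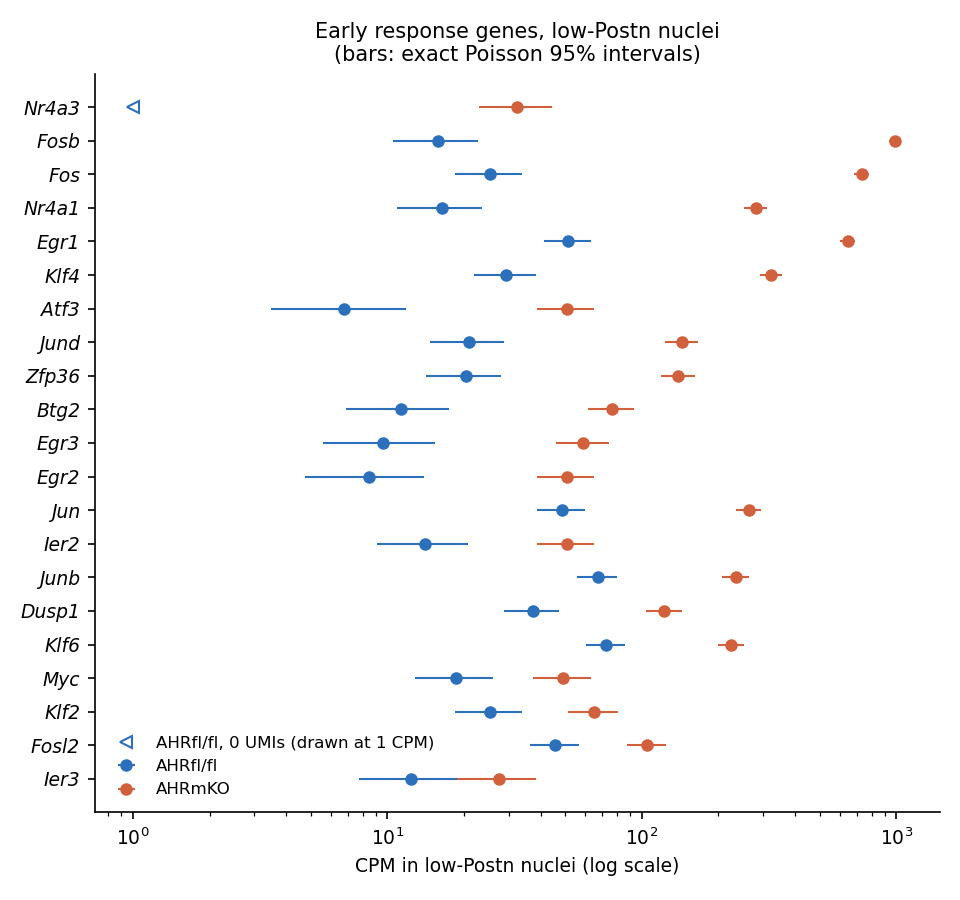
Level of each of the 21 early response genes with 30 or more UMIs, in CPM on a log scale, summed over the low-Postn nuclei of AHRfl/fl (blue) and AHRmKO (red), with exact Poisson intervals. Every red point lies to the right of its blue point, and Fosb and Fos show the widest gap among genes with UMIs in both libraries, 15.8 against 989 CPM and 25.3 against 730 CPM; Nr4a3 had 0 UMIs in AHRfl/fl and is drawn there at 1 CPM as an open triangle.

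The difference was spread over many nuclei. After thinning each nucleus to 2000 UMIs, the median nucleus held 1 early response UMI in AHRfl/fl (quartiles 0 and 2) and 8 in AHRmKO (2 and 15.75). In AHRfl/fl 13 of 437 nuclei held 5 or more, or 2.97% (1.59 to 5.03), and in AHRmKO 164 of 262 did, or 62.6% (56.4 to 68.5). Nuclei with none were 37.8% in AHRfl/fl and 7.63% in AHRmKO. Fos was seen in 4.35% of thinned nuclei in AHRfl/fl and 55.0% in AHRmKO, and Nr4a1 in 1.83% and 34.7%. In all nuclei outside the progenitor rule Fos was seen in 3.23% and 26.9%.

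The same direction appeared outside the low-Postn nuclei, with smaller ratios for most genes. In high-Postn nuclei 13 of 18 early response genes with enough UMIs were 2-fold or more higher in AHRmKO and 1 lower, against 3.07% higher and 17.2% lower over all genes there, and the list median was 1.43. In all other nuclei 9 of 25 were 2-fold or more higher and 0 lower, against 4.41% higher and 15.1% lower over all genes, with a list median of 0.58. Fosb had a log2 ratio of 5.93 in low-Postn, 5.22 in high-Postn and 4.67 in all other nuclei. Btg2 had 2.71, 1.05 and -0.11, and Nr4a1 had 4.06, 3.58 and 1.13. Egr2 and Egr3 were larger in high-Postn nuclei, with 2.73 and 3.28 against 2.51 and 2.56 in low-Postn nuclei, on 39 and 37 UMIs in the high-Postn nuclei of AHRmKO. The gene that was lower in high-Postn nuclei of AHRmKO was Ier5, with 30 and 4 UMIs. The difference between these classes of nuclei was not tested.

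Early response genes were also counted in the low-count barcodes. There Fos stood at 33.6 CPM in AHRfl/fl and 158 CPM in AHRmKO, so the AHRfl/fl level of 25.3 CPM in low-Postn nuclei was below the level there and the AHRmKO level of 730 CPM above it. Jun stood at 141 and 55.6 CPM in those barcodes, and Klf4 at 31.2 and 31.9 CPM. With the profile of the low-count barcodes subtracted, 21 of 21 genes were 2-fold or more higher and the list median was 3.13. Without the clusters that held another cell type's markers, 20 of 20 were 2-fold or more higher, with a median of 2.90. Other settings left some genes short of 2-fold. With the Postn limit applied after thinning 19 of 23 were higher, with a median of 2.34, and with Postn at 0 19 of 20. At a mitochondrial limit of 2% 17 of 18 were higher, and with the top doublet scores left out 20 of 21. The 2% limit kept 389 of 437 low-Postn nuclei in AHRfl/fl but 100 of 262 in AHRmKO. In each of these settings 0 were 2-fold or more lower.

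Among the 12 highest ratios of genes at 50 or more CPM in the higher library, and no lower there than in its low-count barcodes, the gene outside this list was Zim1, an imprinted zinc-finger gene, at 23.6 and 131 CPM, a log2 ratio of 2.44 (1.97 to 3.0). In the low-count barcodes Zim1 stood at 28.8 and 91.6 CPM. The other 11 were Fosb, Fos, Nr4a1, Egr1, Klf4, Atf3, Jund, Zfp36, Btg2, Egr3 and Egr2.

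Genes of activated fibroblasts were on balance lower in AHRmKO. Of 21 with enough UMIs, 10 were 2-fold or more lower and 2 higher, with a list median of -0.60, against 13.8% and 5.88% of all genes. Acta2, smooth muscle actin, stood at 89.5 CPM in AHRfl/fl and 8.29 in AHRmKO, a log2 ratio of -3.36 (-4.52 to -2.52). Mest stood at 163 and 36.5 CPM, Tnc, which encodes the matrix protein tenascin C, at 171 and 49.7 CPM, and Sparc, a collagen-binding matrix protein, at 731 and 244 CPM. For Tnc the log2 ratio of -1.77 was -0.83 at a mitochondrial limit of 2%, -0.91 without the clusters that held another cell type's markers and -3.20 with Postn at 0. Lox, which cross-links collagen, stood at 88.4 and 38.1 CPM. Thbs1, a thrombospondin that activates latent TGF-beta, went the other way at 95.7 and 379 CPM, and Comp stood at 32.1 and 76.3 CPM. Runx1 and Fap, at 1317 and 1324 CPM and at 700 and 693 CPM, were nearly level. Low-count barcodes also held less Acta2 (556 and 77.9 CPM) and Sparc (1026 and 130 CPM) in AHRmKO. With that profile subtracted, 7 of 20 genes were 2-fold or more lower and 2 higher, and the median was -0.56. Without the clusters that held another cell type's markers, 6 of 21 were lower and 2 higher, with a median of -0.42.

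Of 11 fibrillar and associated collagen genes 3 were 2-fold or more lower and 1 higher, against the same 13.8% and 5.88% of all genes, with a median of -0.38. Without the clusters that held another cell type's markers, 1 was lower and 1 higher, with a median of -0.27. Col3a1, with the most UMIs, stood at 3362 CPM in AHRfl/fl and 1660 CPM in AHRmKO, a log2 ratio of -1.02 (-1.09 to -0.94). Col8a1 stood at 780 and 298 CPM and Col14a1 at 276 and 132 CPM. Col11a1 was the member that was 2-fold higher, on 26 and 36 UMIs. No collagen gene of the list was 2-fold higher after thinning, at a minimum of 1000 UMIs, at a mitochondrial limit of 2% or with Postn at 0. Col5a1 was level at 428 and 421 CPM. Basement membrane and microfibril genes gave 0 of 22 past 2-fold in either direction, with a median of -0.19.

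Of 18 matrix proteases and their inhibitors 2 were 2-fold or more higher and 3 lower, against 5.88% and 13.8% of all genes, with a median of -0.0037. The protease genes Mmp19, at 87.8 and 225 CPM, and Adamts1, at 41.1 and 113 CPM, were the 2 higher genes. The inhibitor genes Timp1, at 74.3 and 29.0 CPM, and Timp2, at 274 and 87.0 CPM, were lower, as was Adamtsl1 at 433 and 177 CPM. Timp3 stood at 48.4 and 86.2 CPM.

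Of 20 progenitor identity genes, 4 of which the rule used, 0 were 2-fold or more higher and 2 lower, against 5.88% and 13.8% of all genes, with a median of -0.074. The levels of the 4, Pdgfra, Abca8a, Ebf2 and Bmper, are a description. Abca8a, a lipid transporter gene of the rule, stood at 1221 and 1741 CPM, Ebf2, a transcription factor of the rule, at 796 and 884 CPM, and Bmper, a BMP-binding protein of the rule, at 1635 and 1353 CPM. The 2 lower genes were Lum, which encodes the proteoglycan lumican, at 144 and 25.7 CPM, a log2 ratio of -2.46 (-3.08 to -1.95), and Ly6a, which encodes Sca-1, at 130 and 62.2 CPM. Dcn, which encodes decorin, stood at 985 and 529 CPM. Read against the same shares, of 8 adventitial progenitor genes 1 was 2-fold lower, Igfbp6 at 24.2 and 9.95 CPM. Of 10 interstitial progenitor genes 1 was 2-fold lower, Hmcn2 at 131 and 58.8 CPM, and 0 higher.

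**Figure D2:**
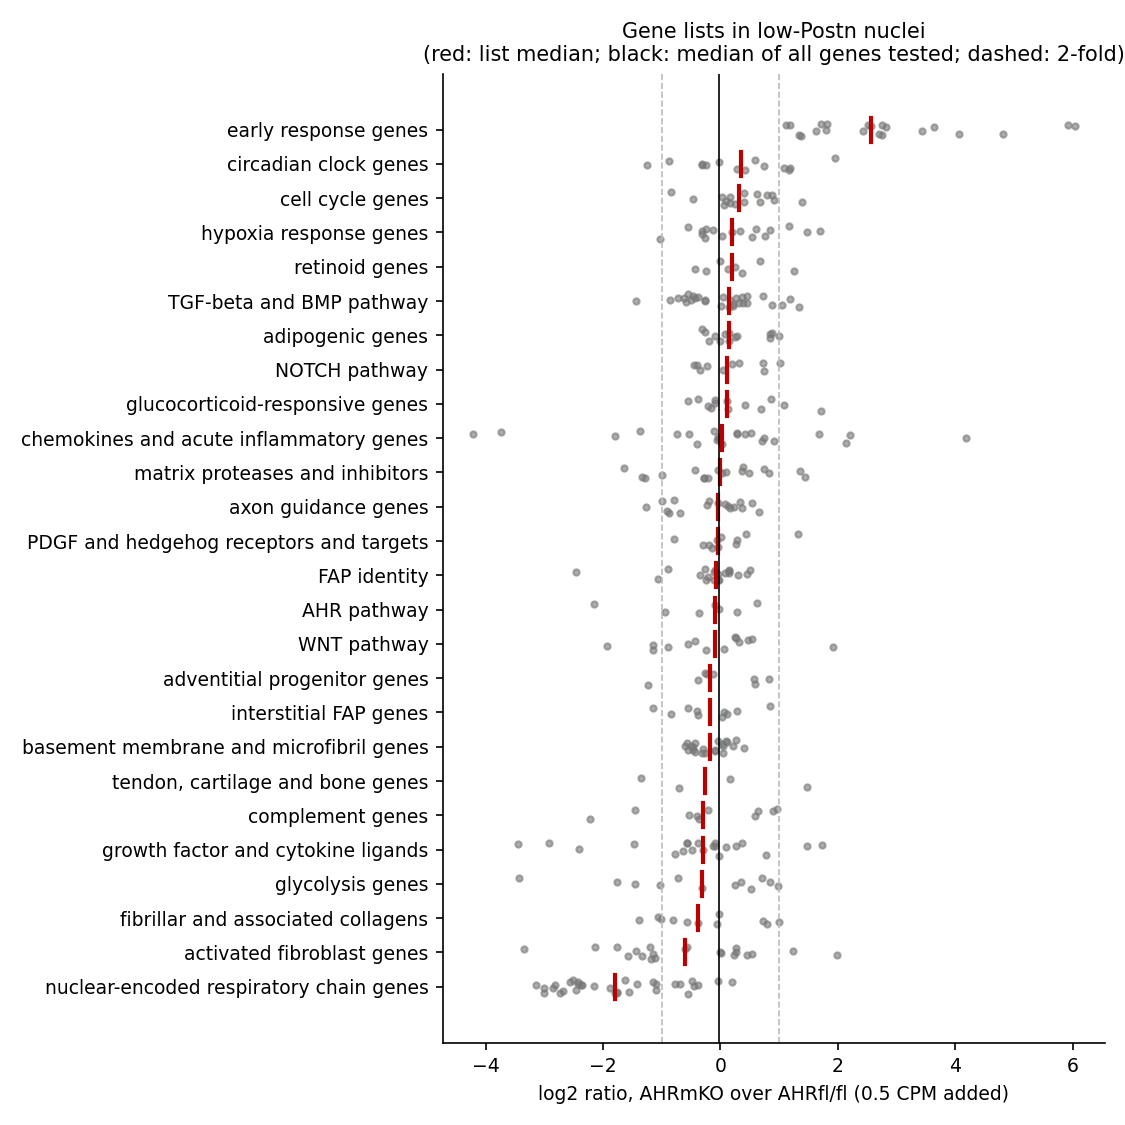
Log2 ratio of AHRmKO over AHRfl/fl in low-Postn nuclei for each gene with 30 or more UMIs (grey points), by gene list, with list medians in red, the median of all genes in black and the 2-fold limits dashed; ribosomal protein genes are not drawn. The early response genes stand alone on the right with a median of 2.56, and the nuclear-encoded respiratory chain genes lie furthest left with a median of -1.80.

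Of 21 growth factor and cytokine ligands 2 were 2-fold or more higher and 4 lower, against 5.88% and 13.8% of all genes. Vegfa, the angiogenic growth factor, stood at 56.3 and 157 CPM, a log2 ratio of 1.47 (1.12 to 1.84), and Il6, an inflammatory cytokine, at 10.1 and 34.8 CPM. Igf2, a growth factor of developing muscle, stood at 41.1 and 4.97 CPM, and Fgf10 at 28.7 and 4.97 CPM. Angpt2 was also lower, but it lies opposite the more abundant Mcph1 and its count is uncertain, since strand use in counting is not given in the sources used here. Pdgfc stood at 35.5 and 12.4 CPM.

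Of 23 chemokines and acute inflammatory genes 4 were 2-fold or more higher and 4 lower, against 5.88% and 13.8% of all genes. Higher in AHRmKO were Cxcl1, a neutrophil chemokine, with 4 and 60 UMIs (2.25 and 49.7 CPM), Socs3, a feedback inhibitor of cytokine signalling, at 19.7 and 92.8 CPM, Ccl7, a monocyte chemokine, at 31.5 and 140 CPM, and Has1, a hyaluronan synthase, at 55.2 and 177 CPM. Lower were Cxcl9 with 43 and 1 UMIs, a log2 ratio of -4.22 (-10.2 to -2.31), Ccl8 with 70 and 3 UMIs, a log2 ratio of -3.74 (-6.30 to -2.38), Cxcl13 at 47.3 and 13.3 CPM, and Ccl2, which lies opposite Gm17268, at 39.4 and 14.9 CPM. Ccl8 stood at 218 and 11.7 CPM in the low-count barcodes. Among 10 complement genes, read against the same shares, 0 were higher and 2 lower, C3 at 213 and 77.1 CPM and Cfb at 130 and 27.4 CPM. C7 stood at 220 and 429 CPM, a log2 ratio of 0.97 (0.78 to 1.16).

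Pathways that shape fibrosis were read against the same shares of all genes, 5.88% higher and 13.8% lower. In the TGF-beta and BMP list 3 of 29 were higher and 1 lower. Bmp1, a protease that processes procollagen, stood at 216 and 550 CPM, and the pathway inhibitors Skil and Smad7 at 81.1 and 185 CPM and at 33.8 and 70.5 CPM. Ltbp2 was lower at 73.2 and 26.5 CPM. In the WNT list 1 of 14 was higher and 3 lower, with the secreted WNT inhibitor Sfrp2 at 193 and 49.7 CPM, its relative Sfrp1 at 68.7 and 30.7 CPM, and Dkk2 at 65.3 and 29.0 CPM. Nkd2 was higher, on 15 and 40 UMIs.

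Metabolic lists were led by genes that are also abundant in the low-count barcodes. Of 33 nuclear-encoded respiratory chain genes 25 were 2-fold or more lower in AHRmKO and 0 higher, against 13.8% and 5.88% of all genes, shares that hold for the next lists too, with a median of -1.80. Cox4i1, a subunit of complex IV, stood at 171 and 20.7 CPM, and at 1126 and 94.6 CPM in the low-count barcodes. With the low-count profile subtracted, 16 of the genes kept enough UMIs, of which 3 were lower and 1 higher, with a median of -0.19. Of 80 ribosomal protein genes 77 were 2-fold or more lower, with a median of -2.52. Of 13 glycolysis genes 5 were 2-fold or more lower, Gapdh standing at 212 and 19.1 CPM, while Ldha stood at 73.8 and 133 CPM. With that profile subtracted 8 glycolysis genes kept enough UMIs, and the median turned from -0.31 to 1.03.

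The remaining lists are also set against 5.88% of all genes higher and 13.8% lower. Of 14 circadian clock genes 4 were 2-fold or more higher and 1 lower, Bhlhe40 at 32.7 and 128 CPM, Cry2 at 59.7 and 135 CPM and Per1 at 50.1 and 107 CPM. Bhlhe40 and Per1 also answer to acute stimuli. Of 17 hypoxia response genes 3 were higher, Vegfa, Adm on 18 and 41 UMIs and Pfkfb3 at 23.1 and 52.2 CPM, and 1 lower, Pgk1 at 71.5 and 34.8 CPM. Of 14 adipogenic genes 1 was higher, Plin1 on 40 and 55 UMIs, and 0 lower, and without the clusters that held another cell type's markers 0 of 13 were higher and 4 lower, with a median of -0.14. Pparg, the master regulator of fat cells, stood at 132 and 245 CPM. Of 16 cell cycle genes 1 was higher, Aspm at 25.3 and 67.1 CPM, and 4 of 15 were higher both at a mitochondrial limit of 2% and without those clusters, with medians of 0.76 and 0.64 in place of 0.32. Mki67, a marker of dividing cells, was seen in 7.55% of thinned nuclei in AHRfl/fl and 9.54% in AHRmKO. Of 17 axon guidance genes 2 were lower, the ephrin receptor genes Epha3, at 477 and 196 CPM, and Epha4, at 58.5 and 29.0 CPM, and without the clusters that held another cell type's markers 5 of 17 were lower, with a median of -0.50 in place of -0.040. Of 10 NOTCH pathway genes 1 was higher, the ligand gene Jag1 at 74.3 and 151 CPM, and of 8 retinoid genes 1 was higher, Cyp26b1, which degrades retinoic acid, at 29.3 and 70.5 CPM. No NOTCH gene passed 2-fold after thinning, at a minimum of 4000 UMIs, at a mitochondrial limit of 2% or with Postn at 0. No retinoid gene did after thinning, at the 2% limit or with Postn at 0. Of 4 tendon, cartilage and bone genes 1 was higher, Mkx, and 1 lower, Thbs4 at 123 and 48.1 CPM. Thbs4 was uneven over clusters of AHRfl/fl. It was 2-fold up in 19 nuclei with macrophage markers, where tendon cell markers summed to 649 CPM, against 120 CPM in the other low-Postn nuclei. Thbs4 was also 2-fold up in the largest cluster, of 140 nuclei, where these markers summed to 251 against 106 CPM. Of 13 glucocorticoid-responsive genes 2 were higher, Dusp1 and Per1, both also members of lists above.

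The targeted gene itself was sparse. Ahr had 28 UMIs in each library's low-Postn nuclei, or 15.8 CPM in AHRfl/fl and 23.2 CPM in AHRmKO, a log2 ratio of 0.54 (-0.25 to 1.37). The low-count barcodes held 18.5 and 20.1 CPM. In AHRmKO 19 of the 28 UMIs lay in 1 cluster of 40 nuclei, at 90.5 CPM, and in AHRfl/fl 5 of 28 lay in the adipocyte-like cluster of 10 nuclei, at 100.5 CPM. Without the clusters that held another cell type's markers the log2 ratio was 1.27. Counts per gene do not separate the floxed part from the rest, so this checks nothing about the deletion. Arnt, the partner of AHR, stood at 244 and 190 CPM. Of 7 genes of the AHR pathway with enough UMIs 0 were 2-fold or more higher and 1 lower, against 5.88% and 13.8% of all genes. The lower one was Hsp90ab1, a chaperone that holds AHR in the cytosol, at 265 and 58.8 CPM, which also stood at 1599.8 and 175 CPM in the low-count barcodes. Cyp1b1, a target of AHR that metabolises its ligands, stood at 137 CPM in AHRfl/fl and 71.3 CPM in AHRmKO, a log2 ratio of -0.94 (-1.32 to -0.59). Its ratio was -0.15 in high-Postn and -1.49 in all other nuclei. Tiparp, another target, stood at 77.1 and 119 CPM, while Ahrr had 1 UMI in each library and Nqo1 had 4 and 0.

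The Cyp1b1 promoter is shown because it is the AHR target with the most UMIs in AHRfl/fl. Capitals mark the reverse complement of GCGTG.
Cyp1b1, chr17:79715062-79715311, minus strand: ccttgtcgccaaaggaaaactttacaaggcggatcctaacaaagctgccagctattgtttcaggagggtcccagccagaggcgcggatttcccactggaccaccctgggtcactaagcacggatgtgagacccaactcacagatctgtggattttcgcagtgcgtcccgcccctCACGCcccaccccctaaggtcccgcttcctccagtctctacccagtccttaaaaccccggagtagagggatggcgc
GCGTG on either strand, whose letters can overlap those of TGACG, occurred in 4 of the 6 AHR targets that the promoter table holds, and in 10 of the 20 early response genes, against 30.9% of all genes with a promoter there.

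Among genes at 50 or more CPM in the higher library and no lower there than in its low-count barcodes, the 12 lowest ratios all belonged to genes that lie opposite a more abundant gene on the other strand in GENCODE M21. Of the 32158 genes matched there, 5260 lie opposite a more abundant gene, whatever their own level. Egfros, antisense to Egfr, had 509 and 7 UMIs, Lrrc4, opposite Snd1, had 471 and 13, and Glp2r, opposite Gas7, had 98 and 0, at least 22.2-fold lower against a floor of 3 UMIs in AHRmKO. For Insyn2a the counts were 138 and 2, with a log2 ratio of -5.18 (-8.61 to -3.67), and for Far1os 111 and 2, with -4.87 (-8.30 to -3.35). The same 5 genes were lower in AHRmKO in high-Postn and in all other nuclei as well. Without strand information reads of such a gene and of its partner cannot be told apart. Whether both libraries were counted with the same settings is not given in the sources used here, and its part in these ratios and in the 1194 lower genes was not tested. Leaving out every gene opposite a more abundant one, 478 genes were 2-fold or more higher and 869 lower, out of fewer than the 8644 tested before. Among the genes left, chosen after the values were seen, the lowest included Lum, Hmcn1, a matrix protein gene, at 276 and 53.9 CPM, and Cntnap2, a cell adhesion gene, at 84.4 and 15.7 CPM. Hmcn1 had a ratio of -2.35 (-2.76 to -1.98) in low-Postn nuclei and -0.16 in high-Postn nuclei.

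The counts of genes past 2-fold moved with the choice of nuclei. The 508 higher genes became 288 with a minimum of 4000 UMIs per nucleus and 307 with a mitochondrial limit of 2%. The 1194 lower genes became 721 with the low-count profile subtracted.

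Low- and high-Postn nuclei were then compared within each library, where both classes share 1 library. In AHRfl/fl 69 of 9569 genes were 2-fold or more higher in low-Postn nuclei, or 0.721%, and 72 lower, or 0.752%. In AHRmKO 394 of 6736 were higher, or 5.85%, and 163 lower, or 2.42%. The AHRmKO comparison rests on 107 high-Postn nuclei.

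Csmd1, which encodes a large membrane protein that regulates complement, ranked first by the smaller of its ratios among the 12 genes furthest above high-Postn nuclei in both libraries, under the same limits of level. It stood at 1216 CPM in low-Postn and 382 CPM in high-Postn nuclei of AHRfl/fl, a log2 ratio of 1.67 (1.56 to 1.78), and at 1043 and 163 CPM in AHRmKO, a ratio of 2.67 (2.42 to 2.94). With the Postn limit applied after thinning, the AHRmKO ratio was 0.93. Thinned nuclei with a Csmd1 UMI were 20.4% of low-Postn and 8.41% of high-Postn nuclei in AHRfl/fl, and 15.3% and 7.48% in AHRmKO. So most low-Postn nuclei showed none, and the level came from a minority. C7 stood at 220 and 61.4 CPM in AHRfl/fl and at 429 and 194 CPM in AHRmKO, ratios of 1.83 and 1.15 that became 2.98 and 2.14 with the thinned limit. Sned1 stood at 1643 and 900 CPM, and at 3188 and 1682 CPM. Fmo2, a flavin monooxygenase, stood at 76.6 and 28.9 CPM, and at 101 and 37.8 CPM. Thrb, a thyroid hormone receptor, Vegfd, a lymphatic growth factor, Prr16, Plcb1 and Aox1 were also among the 12 genes furthest above high-Postn nuclei in both libraries, with ratios between 0.79 and 1.37. In AHRmKO, without the clusters that held another cell type's markers, the ratio was 0.081 for Thrb, 0.29 for Prr16 and 0.10 for Plcb1. After thinning it was 0.33 for Thrb, 0.0018 for Plcb1 and -0.11 for Vegfd.

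Acsl1, Car3 and Slit2 were on the same list. Acsl1, which activates fatty acids, stood at 128 and 56.1 CPM in AHRfl/fl and 142 and 17.7 CPM in AHRmKO, and Car3, a carbonic anhydrase of fat and muscle, at 119 and 59.4 CPM and 179 and 5.91 CPM. Without the clusters that held markers of another cell type, adipocyte-like clusters among them, the AHRfl/fl ratio was -1.36 for Acsl1 and -1.83 for Car3, while the AHRmKO ratio fell from 2.96 to 0.84 for Acsl1 and from 4.81 to 1.48 for Car3. The AHRmKO ratio of Slit2, an axon guidance ligand, turned from 1.86 to -0.75. In AHRmKO 115 Slit2 UMIs lay in the 7 nuclei of the adipocyte-like cluster, at 1276 CPM against 14.3 CPM in the other low-Postn nuclei, whereas in AHRfl/fl it was among the leading genes of the largest cluster, at 174 against 59.9 CPM. High-Postn nuclei were not clustered, so that step acted on the low-Postn side alone.

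Under the same limits in both libraries, the 12 genes furthest below high-Postn nuclei in both libraries were Postn, which the rule used, Fbn2, Ccn4, Bmpr1b, Col8a1, Col23a1, Ltbp2, Ccdc3, Aspn, Tnc, Adamts6 and Kif26b. Col8a1, a short-chain collagen, stood at 780 CPM in low-Postn and 1704 CPM in high-Postn nuclei of AHRfl/fl and at 298 and 1785 CPM in AHRmKO, where the ratio of -2.58 became -0.86 with the thinned Postn limit. Aspn, which encodes asporin, a small proteoglycan that binds TGF-beta, stood at 339 and 609 CPM, and at 157 and 452 CPM, where the ratio of -1.53 became -0.71 with that limit. Tnc stood at 171 and 1225 CPM in AHRfl/fl, a log2 ratio of -2.84 (-3.02 to -2.67), and at 49.7 and 86.2 CPM in AHRmKO, a ratio of -0.79 (-1.31 to -0.28). With a mitochondrial limit of 2% the AHRmKO ratio of Tnc turned to 0.64, with Postn at 0 it was -3.18 and after thinning -2.75. Ccdc3 in AHRmKO turned from -1.53 to 0.035 with the thinned limit, and Bmpr1b from -1.52 to -0.19 at the 2% limit. Fbn2, a fibrillin, stood at 25.9 and 90.3 CPM, and at 19.1 and 54.3 CPM.

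**Figure D3:**
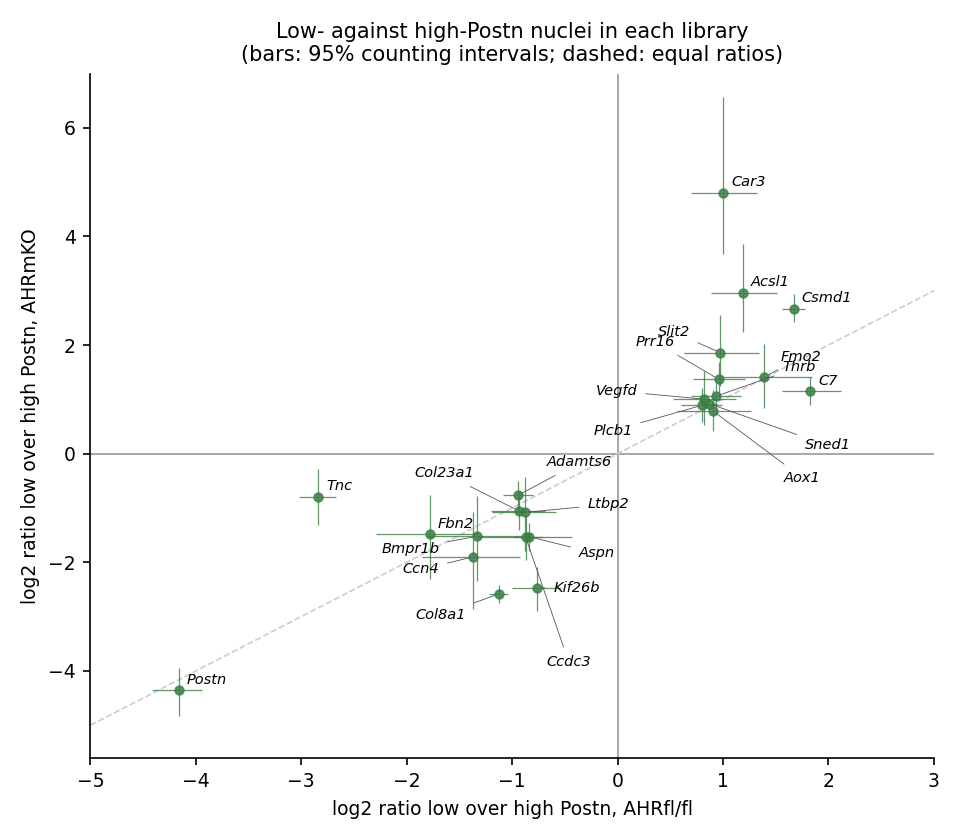
Log2 ratio of low- over high-Postn nuclei in AHRfl/fl (x axis) and AHRmKO (y axis) for the 24 genes named in this comparison, with counting intervals as bars and equal ratios dashed. Csmd1 (1.67 and 2.67) lies above the dashed line at the upper right, Postn, which the rule used (-4.16 and -4.35), lies close to it at the lower left, Tnc (-2.84 and -0.79) lies above it on the left, and Car3 (1.0 and 4.81) lies far above it on the right.

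Lists were read against the shares of all genes, 0.721% higher and 0.752% lower in AHRfl/fl and 5.85% and 2.42% in AHRmKO. Fibrillar collagens were lower in low-Postn nuclei, with a median of -0.61 in AHRfl/fl and -0.56 in AHRmKO, and 3 of 11 and 1 of 11 genes 2-fold or more lower. Activated fibroblast genes had medians of -0.48 and -0.42, with 4 lower in each and 0 and 2 higher. Adipogenic genes had medians of 0.39 and 1.04, with 3 of 14 and 7 of 13 genes higher. The low-Postn nuclei included adipocyte-like clusters of 10 and 7 nuclei, in which adipocyte markers summed to 13170 and 22985 CPM, and the part of those nuclei in these counts was not tested. Complement genes had medians of 0.17 and 0.74. Early response genes gave 0 of 15 past 2-fold in AHRfl/fl, with a median of 0.053, and 8 of 21 higher in AHRmKO, with a median of 0.80. Cell cycle genes had medians of -0.32 and -1.01, with 8 of 15 lower in AHRmKO. After thinning, Mki67 was seen in 7.55% of low-Postn and 9.94% of high-Postn nuclei of AHRfl/fl and in 9.54% and 7.48% of those of AHRmKO, where 50 of its UMIs in high-Postn nuclei lay in the 14 nuclei with 10 or more Postn UMIs. Over all genes the medians were 0.016 and 0.061.

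Across nuclei grouped by Postn UMIs the named genes did not step at the limit alike. Csmd1 in AHRfl/fl stood at 1340 CPM at 0 Postn UMIs, 1002 at 1, 352 at 2 and 458 at 3, whereas in AHRmKO it stood at 1252 CPM at 0 and 83.2 at 1. In AHRmKO it was at 76.3 CPM at 4 to 9 and rose to 416 CPM in the 14 nuclei with 10 or more. C7 in AHRfl/fl stood at 301 CPM at 0 and 79.8 at 1, and in AHRmKO at 477 and 213 CPM. Past the limit it stood at 105 CPM at 2 and 147 at 3 in AHRfl/fl, and at 257 CPM at 2, 0 at 3 and 319 at 4 to 9 in AHRmKO, so it did not fall steadily in either library. Sned1 was nearly level at the limit, at 1688 CPM at 1 UMI and 1569 at 2 in AHRfl/fl, and at 3072 and 2841 CPM in AHRmKO. Tnc in AHRfl/fl stood at 116 CPM at 0, 265 at 1, 522 at 2 and 2835 at 10 or more, while in AHRmKO no group passed 222 CPM. Depth also differed along this axis, from a median of 3621 UMIs at 0 to 4807 at 10 or more in AHRfl/fl and from 3081 to 10998 in AHRmKO.

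**Figure D4:**
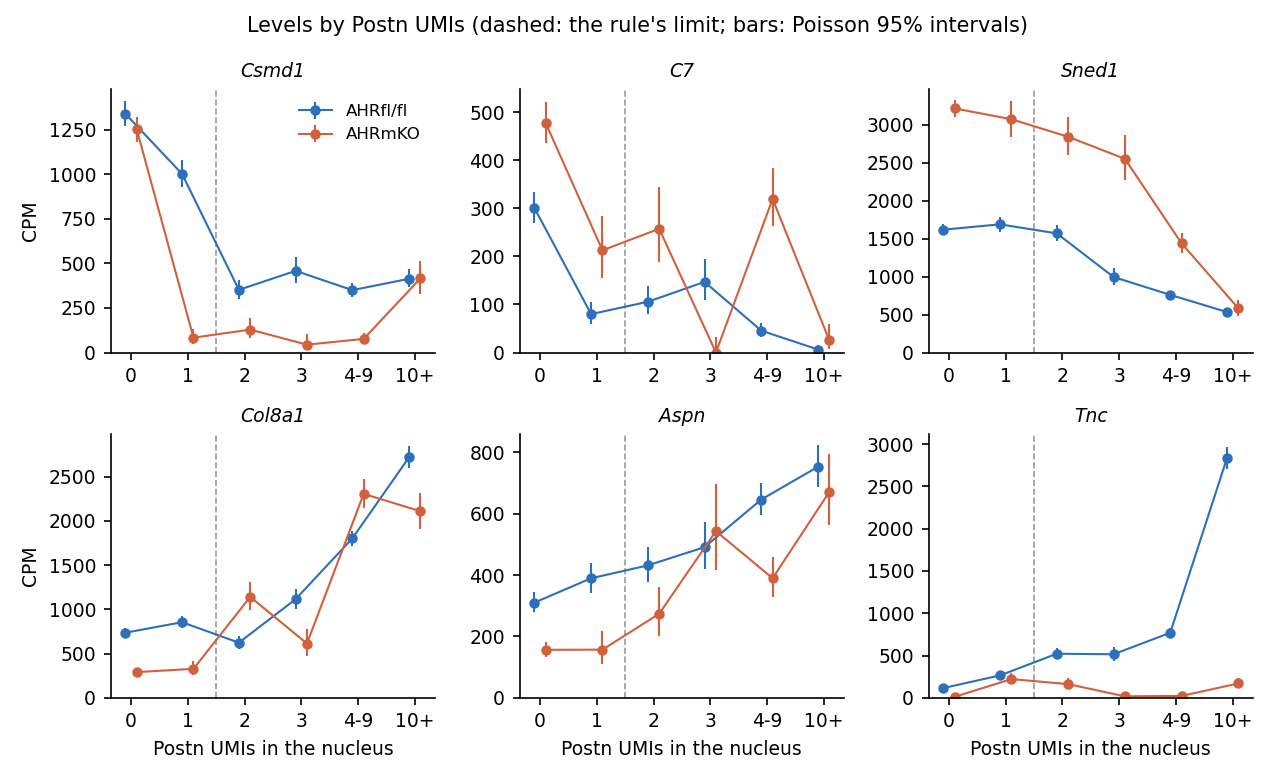
Level in CPM of 6 genes against Postn UMIs per nucleus in AHRfl/fl (blue) and AHRmKO (red), with exact Poisson intervals and the rule's limit dashed. Csmd1 in AHRmKO is at 1252 CPM at 0 and 83.2 CPM at 1, Sned1 passes the limit nearly level, and Tnc in AHRfl/fl reaches 2835 CPM at 10 or more against at most 222 CPM in AHRmKO.

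The low-Postn nuclei were not uniform, and clustering each library on its own gave 7 groups in AHRfl/fl and 5 in AHRmKO. A cluster's own genes were used to form it, so they are given as a description. An adventitial progenitor-like cluster appeared in both: 62 nuclei, or 14.2% (11.1 to 17.8), in AHRfl/fl and 73 nuclei, or 27.9% (22.5 to 33.7), in AHRmKO. In each, 7 of 10 adventitial genes were 2-fold up against the other low-Postn nuclei, Pi16, Dpp4, Cd55, Sema3c, Efhd1, Anxa3 and Clec3b. The share of all genes 2-fold up in a cluster was not counted, so this and later counts of markers in clusters are a description. Pi16, a marker of the progenitors around vessels, stood at 111 CPM in the AHRfl/fl cluster and 156 CPM in the AHRmKO one. In AHRmKO this cluster was also led by Has1, Atf3, Fos, Klf4 and Fosb, so early response genes also set it apart, and the 2 shares are not compared. Whether they helped to form it was not tested.

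Cell cycle genes were raised in a cluster of 98 nuclei of AHRfl/fl, or 22.4% (18.6 to 26.6), and in a cluster of 52 of AHRmKO, or 19.8% (15.2 to 25.2). Without thinning, Mki67 was seen in 59 of all 437 low-Postn nuclei of AHRfl/fl and 35 of all 262 of AHRmKO. The shares are thus those of clusters and not of dividing nuclei. The highest ratios belonged to Tnfaip6 and Adgrb3 in the AHRfl/fl cluster and to Nlgn1 and Col11a1 in the AHRmKO one. In these clusters, 12 and 15 of 20 cycle genes were 2-fold up, among them Mki67, Top2a, Kif11 and Knl1, and Tnc was among the 15 leading genes of both. Cycle genes were also 2-fold up in smaller clusters described below, 8 of 20 in 14 nuclei of AHRfl/fl and 6 of 20 in 7 nuclei of AHRmKO. The largest AHRfl/fl cluster, 140 nuclei, was led by Frmd5, Itgbl1, Fmo2, Hmcn2 and Csmd1, and a cluster of 40 AHRmKO nuclei by Gria4, Ism1, Cxcl12, Frmd5 and Pknox2, with Fgf7 and Csmd1 also among its 15 leading genes. Csmd1 stood at 2359 CPM in the first and 2495 CPM in the second. A further AHRfl/fl cluster of 94 nuclei was led by Sned1, Chl1, Fgf7, Astn2 and Mme. These 3 clusters were left unnamed.

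The clusters that met the limits for another cell type's markers were 3 in AHRfl/fl and 2 in AHRmKO. Adipocyte-like clusters of 10 and 7 nuclei had 4 and 5 of 7 adipocyte markers 2-fold up, with Plin1, a coat protein of lipid droplets, at 724 and 588 CPM. The AHRmKO one also met the limits for pericyte or smooth muscle markers, with Notch3, Myh11 and Cspg4 up and sums of 599 against 202 CPM. In AHRfl/fl 19 nuclei had 7 of 11 macrophage markers up, and 14 nuclei had 3 satellite cell and 3 immature muscle markers up, 9 of these 14 lying among the top doublet scores. The adventitial progenitor-like cluster of AHRmKO had 3 of 15 myofibre markers up, Tnnc2, Pvalb and Actn3, but its summed level was 505 against 388 CPM, under the 2-fold limit, and it stayed in. Its mesothelial or synovial markers summed to 718 against 187 CPM, with 1 of 5 up, Prg4, under the limit of 3 markers. In AHRmKO a cluster of 90 nuclei, or 34.4% (28.6 to 40.4), had 6 of 11 macrophage markers and 5 of 10 endothelial markers up, at summed levels of 732 against 272 CPM and 463 against 156 CPM in the other low-Postn nuclei.

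Early response genes were higher in every AHRmKO cluster than in any AHRfl/fl cluster. Their summed level was 322 to 724 CPM over the 7 AHRfl/fl clusters and 2318 to 10105 CPM over the 5 AHRmKO clusters. These ranges did not overlap, but for how many other genes or lists this held was not counted. Myofibre markers were 1 such list, with sums of 1342 to 2264 CPM in AHRfl/fl clusters and 166 to 531 CPM in AHRmKO clusters. The clusters divide 1 library per genotype, so they are not replicates of the early response difference. The adventitial progenitor-like clusters stood at 510 CPM in AHRfl/fl and 10105 CPM in AHRmKO, and the clusters with cell cycle genes at 724 and 4040 CPM. The AHRmKO adventitial progenitor-like cluster had early response genes among its leading genes, so its level is a description. The lowest AHRmKO value belonged to the cluster with macrophage and endothelial markers.

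**Figure D5:**
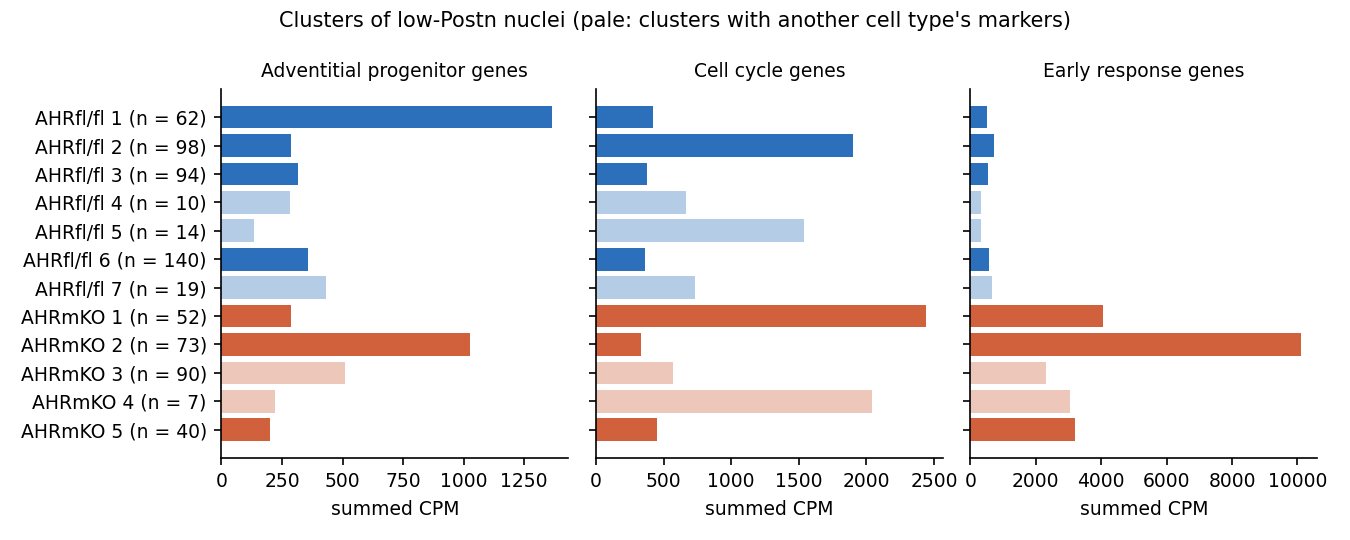
Summed level in CPM of adventitial progenitor, cell cycle and early response genes in each cluster of low-Postn nuclei of AHRfl/fl (blue) and AHRmKO (red), pale where markers of another cell type were present. Adventitial genes peak in 1 cluster per library (1364 and 1026 CPM), and the early response bars of AHRmKO (2318 to 10105 CPM) all exceed those of AHRfl/fl (322 to 724 CPM).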

How the data were processed

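The data are single-nucleus UMI counts of 1 library per genotype. The authors deposited raw counts per gene and barcode for all barcodes, neither normalised nor filtered. The submitters' processing notes name Cell Ranger 7.0.1 and mm10. The annotation, the counting of introns and the use of strand are not given in the sources used here. The members, the gene lists and the tests were chosen with earlier results of these data known.

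UMIs of the selected nuclei were summed per library and divided by that sum to give CPM with exact Poisson intervals at 95%. Ratios carry exact conditional binomial intervals and 0.5 CPM added, so low genes show less than their true ratio. A gene counted as tested with 30 or more UMIs in the higher group. Named genes were the 12 highest and 12 lowest ratios at 50 or more CPM there, no lower than in barcodes of 200 to under 500 UMIs, with mitochondrial, haemoglobin, ribosomal protein and unnamed genes left out, and fixed genes of the rule and of the AHR pathway. Against all other nuclei they were the 12 with the highest smaller ratio of both libraries. From each list the most abundant or most different members are named.

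Clusters came from scanpy 1.11.5 (Leiden, resolution 0.5, 2000 variable genes, 20 components, 15 neighbours), in Python 3.11.15. Scrublet scores left out the top 1154 and 176 nuclei in 1 alternative only, 12 and 5 of them low-Postn, and doublets otherwise stayed. Opposite-strand partners came from GENCODE M21, in which 32158 of 32285 genes matched. The ratios, intervals and 2-fold counts were tested on simulated data. These were Poisson counts drawn from the summed levels, the model that the intervals assume, so uneven spread of UMIs over nuclei was not covered. In all 13 other settings, and 2 more chosen after seeing the data, were tried.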

Additional observations from a re-analysis of the deposited data

Results flagged for a closer look

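Among named genes and members of the gene lists, 2 passed 2-fold between the libraries in opposite directions in low- and high-Postn nuclei. Both counting intervals had to exclude an equal level. Genes that changed direction by less were not counted, and the difference between the classes was not tested. Ctnna3, which encodes a catenin of cell junctions, had a log2 ratio of AHRmKO over AHRfl/fl of -2.23 in low-Postn nuclei and 1.16 in high-Postn nuclei. Plin1, a lipid droplet gene, had 1.0 in low-Postn and -4.41 in high-Postn nuclei, where it had 25 UMIs in AHRfl/fl and 0 in AHRmKO, so that value depends on the CPM added, and most of its low-Postn UMIs lay in the adipocyte-like clusters (36 of 40 in AHRfl/fl and 53 of 55 in AHRmKO).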

How the results depend on the processing

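No paired analysis was possible because each group has 1 library, and for the same reason no value without a library is given. Of 670 values of named genes between the libraries, 636 moved by less than their counting interval, 34 by more, and 2 changed sign, Pdgfra to 0.043 after thinning and Ahrr, on 1 UMI in each library, to -1.18 at a mitochondrial limit of 2%. For low against high Postn 573 of 672 moved by less, 93 by more and 6 changed sign. Of 388 list medians 47 changed sign, in 16 of 26 lists, and 0 of 60 of these values did so for the early response, activated fibroblast, collagen and respiratory chain lists. Among those that changed sign were the medians of adventitial genes (-0.18 to 0.44 with Postn at 0), retinoid genes (0.19 to -0.41 after thinning), WNT genes (-0.095 to 0.27 at 4000 UMIs), proteases (-0.0037 to 0.25 there), adipogenic genes (0.15 to -0.14 without clusters holding another cell type's markers), and AHR pathway and glycolysis genes (-0.086 to 0.28 and -0.31 to 1.03 with the profile of low-count barcodes subtracted).

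The share of low-Postn nuclei (2.57% and 3.95%) was 2.31% and 2.88% at a minimum of 4000 UMIs, 2.85% and 3.03% at a mitochondrial limit of 2%, 1.66% and 3.26% with Postn at 0, 3.64% and 4.84% with the Postn limit applied after thinning, and 2.33% and 2.53% without clusters holding another cell type's markers. It was 2.29% in AHRfl/fl at a minimum of 1000 UMIs.

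Between the libraries, 508 higher and 1194 lower genes became 870 and 2182 at a 10 UMI minimum and 2345 and 5349 at 1 UMI. The higher genes became 288 at 4000 UMIs and 307 at the 2% limit, and the lower genes 721 with that profile subtracted. The collagen median (-0.38) was -0.47 after thinning, -0.16 with the thinned Postn limit and -0.27 without those clusters. The respiratory chain median was -0.19 with that profile subtracted, and the activated fibroblast median -1.09 at 1 UMI. The identity median turned to 0.026 at 4000 UMIs and the interstitial median to 0.022 at the 2% limit.

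For low against high Postn in AHRfl/fl, 69 higher and 72 lower genes became 169 and 37 with the thinned limit, 123 and 138 with that profile subtracted, 37 and 33 with 5 CPM added, 275 and 264 at 10 UMIs and 1932 and 1188 at 1 UMI, and the lower genes 163 with Postn at 0. In AHRmKO 394 and 163 became 200 and 33 after thinning, 996 and 400 at 10 UMIs and 3589 and 2015 at 1 UMI, and the higher genes 246 at 4000 UMIs, 227 with Postn at 0, 761 with the thinned limit and 168 without those clusters. In AHRmKO, Vegfd turned to -0.11 after thinning, Ccdc3 to 0.035 with the thinned limit, Tnc to 0.64 at the 2% limit and Slit2 to -0.75 without those clusters, and in AHRfl/fl Acsl1 and Car3 turned to -1.36 and -1.83 without them. Between the libraries, with the 30 UMI minimum kept, genes past 2-fold ranged from 1 to 5 higher in the hypoxia list, 2 to 5 in TGF-beta and BMP, 2 to 4 in circadian and protease genes and 0 to 3 in adipogenic genes, and from 1 to 6 lower in the WNT list, 1 to 4 in proteases and 0 to 3 in circadian genes. Fewer nuclei or genes enter several of these settings, and otherwise the cause was not tested. Depth limits statements on Ahr, Ahrr and Nqo1, which had at most 28 UMIs in the low-Postn nuclei of a library.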
